A study of Zea mays with 9 samples.

Results

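The 3 genes described here belong to the NAC family of plant transcription factors and are ANAC010 (GRMZM2G058518), NAC12 (GRMZM2G018436) and nam1 (GRMZM2G393433, also listed as CUC2). They are 3 of the 39305 gene identifiers counted in developing maize tassels. The genes were chosen by their levels in ndl1 and wildtype libraries, ANAC010 and NAC12 for lying far above wildtype and nam1 for lying below it. Their values in that comparison are therefore a description and carry no test. RefSeq gives the name NAC12 to a second gene as well, GRMZM2G125777, which is treated separately.

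NAC proteins bind DNA through a conserved domain at their amino-terminal end and take their family name from the petunia gene NAM and the Arabidopsis genes ATAF and CUC. The NAM and CUC branch marks the boundaries between a meristem and the organs that arise from it, and Arabidopsis plants that lack CUC genes have fused organs. Other branches respond to drought, senescence or mitochondrial dysfunction, or control secondary cell walls. The Arabidopsis gene named ANAC010, also known as SND3, is of the last kind. No role is stated here for the maize gene of that name or for NAC12.

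RNA from field-grown B73 tassels of 2 to 4 mm was sequenced in 9 libraries. The 3 wildtype libraries were compared with 4 of the ndl1/zmftsh10 mutant and with 2 of plants heterozygous for both Bif1 and Bif4. The ndl1 gene encodes an ATPase of mitochondria, and FtsH proteins as a class are membrane-bound proteases that use ATP. Bif1 and Bif4 encode Aux/IAA repressors of auxin signalling. The ndl1 tassels included severely affected ones that still bore some axillary meristems, and the labels do not say whether plants were pooled. Each library held 16863087 to 22533736 reads assigned to genes, and since the labels do not say that libraries came from separate plants, a p-value speaks of library spread alone, which may be technical. The meristem gene kn1 was read at 8003 ± 563 normalized counts in wildtype (SD, n = 3). Of 11 leaf photosynthesis markers rca1 had no read in any library, but others were expressed. Wildtype means were 507 normalized counts for Pep1, 381 for me3 and 60.0 for Ppdk1. Levels below are normalized counts of the 9 libraries on 1 scale, that is, reads divided by a size factor of the library. Levels are compared between libraries and never between genes, because the values are not corrected for gene length.

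ANAC010 was almost silent in wildtype tassels. Its wildtype levels were 0.973, 5.82 and 3.49 normalized counts in replicates 1 to 3, which rest on 1, 6 and 3 reads. In ndl1 replicates 1 to 4 the levels were 132, 111, 67.3 and 34.8 normalized counts. The ndl1 and wildtype levels did not overlap, and the lowest ndl1 library was 5.98 times the highest wildtype one. The means were 3.43 ± 2.42 normalized counts in wildtype (SD, n = 3) and 86.3 ± 43.6 in ndl1 (SD, n = 4), a ratio of 25.2. On the log2(normalized count + 1) scale the difference was 4.31 ± 0.56 (SE, limma), place 38 from the top among 22416 genes tested. Of these genes 9.51% had every ndl1 library above wildtype, 10.6% had every one below, and 3.16% were called in either direction, and nothing is read from these shares because the genes were picked on this contrast.

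In Bif1;Bif4 the ANAC010 level was 18.2 normalized counts in replicate 1 and 2.13 in replicate 2, which rest on 20 and 2 reads. The exact Poisson interval at 95% was 12.2 to 30.9 reads for the first and 0.242 to 7.22 for the second, covering counting error only. One library thus lay above the wildtype range and the other within it. The order of the group means was wildtype, Bif1;Bif4 at 10.1 ± 11.3 (SD, n = 2) and ndl1, and the first pair of groups overlapped. ANAC010 did not pass the low-count filter in this comparison. Its log2 difference was 0.98, with an SE of 0.87 and an adjusted p of 0.597 when the fit was made without the filter (limma, Benjamini-Hochberg). Without Bif1;Bif4 replicate 2 the log2 difference was 2.28, while replicate 2 itself deviated from the wildtype mean by -0.33 (log2). The value thus depended on which library was kept.

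NAC12 showed a flat, low level outside ndl1. The wildtype levels were 7.78, 7.76 and 6.99 normalized counts, from 8, 8 and 6 reads. The ndl1 levels were 117, 76.6, 69.9 and 252 normalized counts in replicates 1 to 4. No ndl1 library came near the wildtype range, the lowest being 8.99 times the highest wildtype value. The means were 7.51 ± 0.45 (SD, n = 3) and 129 ± 84.9 (SD, n = 4), a ratio of 17.2, and the log2 difference was 3.73 ± 0.42 (SE, limma). In Bif1;Bif4 the 2 libraries held 5.45 and 4.25 normalized counts, both below the wildtype values. These rest on 6 and 4 reads, whose exact Poisson intervals at 95% (2.20 to 13.1 and 1.09 to 10.2 reads) include the wildtype read numbers. The difference from wildtype was therefore not detectable at this depth. Of the 22381 genes tested in Bif1;Bif4 against wildtype, 21.2% also had both Bif1;Bif4 libraries below wildtype. NAC12 likewise did not pass the filter there, and its log2 difference was -0.55 with an SE of 0.41 and an adjusted p of 0.517 without the filter (limma, Benjamini-Hochberg). Its order of means was Bif1;Bif4 at 4.85 ± 0.85 (SD, n = 2), wildtype and ndl1.

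The boundary gene nam1 was well expressed in wildtype, at 1172, 1521.5 and 1291 normalized counts. In ndl1 it stood at 365, 633, 703 and 399 normalized counts in replicates 1 to 4, all below the lowest wildtype library. Replicates 1 and 4 held the lower levels and replicates 2 and 3 the higher ones. In Bif1;Bif4 it stood at 342 and 291 normalized counts, the lowest of the 9 libraries. The means were 1328 ± 178 in wildtype (SD, n = 3), 525 ± 168 in ndl1 (SD, n = 4) and 317 ± 36.3 in Bif1;Bif4 (SD, n = 2). Wildtype was thus 2.53 times ndl1 and 4.19 times Bif1;Bif4. The log2 difference was -1.39 ± 0.23 (SE, limma) in ndl1.

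The comparison of Bif1;Bif4 with wildtype did not serve to choose nam1, but its wildtype libraries did, for a level above ndl1. The p-values of nam1 here are therefore not independent of the choice of the gene and are given beside the levels as a description. On these terms nam1 was lower in Bif1;Bif4, with a log2 difference of -2.07 ± 0.13 (SE, limma, Benjamini-Hochberg adjusted p = 0.00316, lower in 2 of 2 libraries). Of all 22381 genes tested there, 2.05% were called lower and 2.23% higher. Libraries without overlap were more common, with 21.2% of genes below wildtype in both Bif1;Bif4 libraries and 20.9% above. By edgeR's quasi-likelihood test on the recovered reads the Benjamini-Hochberg adjusted p was 0.00459. In the authors' deposited table the adjusted p was 6.35e-34. Without wildtype replicate 2 the difference was -1.96 and the adjusted p 0.0517 (limma), above the threshold of 0.05. In bulk tassels fewer boundary cells and less nam1 RNA per cell cannot be told apart.

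**Figure D1:**
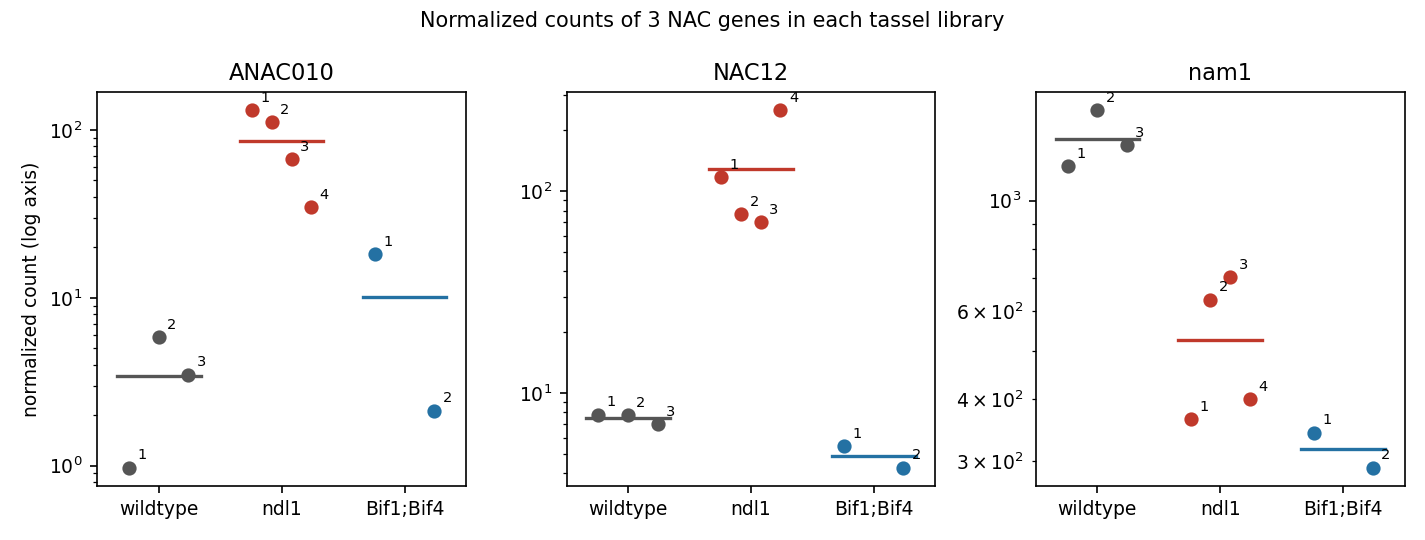
Normalized counts of ANAC010, NAC12 and nam1 on a log axis, with 1 point per library labelled by its replicate number and a bar at the group mean. ANAC010 and NAC12 lie highest in the 4 ndl1 libraries, and nam1 lies highest in the 3 wildtype libraries.

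The mutants were also set beside each other in a fit of all 9 libraries. ANAC010 was higher in ndl1 than in Bif1;Bif4 by 3.33 ± 0.80 and NAC12 by 4.28 ± 0.47 (log2 difference ± SE, limma, no test because the ndl1 libraries chose the genes). For ANAC010 the difference was 4.64 without Bif1;Bif4 replicate 1 and 2.02 without Bif1;Bif4 replicate 2. For nam1 it was 0.67 ± 0.25, higher in ndl1. The lowest ndl1 library was 1.07 times the higher Bif1;Bif4 library, so the groups did not overlap, but by a gap smaller than the SD of either. Of 23203 genes tested in this fit, 13.3% had ndl1 entirely above Bif1;Bif4 and 14.5% entirely below, while 3.47% were called, 1.79% higher and 1.68% lower in ndl1.

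The log2 fold changes in the authors' deposited table were smaller for the low-count genes. In ndl1 the authors' deposited table gave 1.84 for ANAC010 and 1.95 for NAC12, against log2 ratios of the mean normalized counts of 4.65 and 4.10. For nam1 the authors' deposited table gave -1.13, against -1.34 from the means. In Bif1;Bif4 the authors' deposited table gave 0.18 for ANAC010, -0.12 for NAC12 and -1.85 for nam1.

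The members did not follow each other among the ndl1 libraries. Replicate 4 had the lowest ANAC010 level of the group, 34.8 normalized counts, and the highest NAC12 level, 252. Its nam1 level, 399, was the second lowest. Replicate 1 combined the highest ANAC010 level with the lowest nam1 level. Expressed as log2 deviation from the wildtype mean, ANAC010 lay at 5.08, 4.84, 4.12 and 3.19 in ndl1 replicates 1 to 4. The NAC12 deviations were 3.79, 3.19, 3.06 and 4.90, and those of nam1 were -1.85, -1.06, -0.91 and -1.72. Over the 9 libraries ANAC010 and NAC12 had a Pearson r of 0.822 on the log2 scale, a value that reflects the shared group difference.

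**Figure D2:**
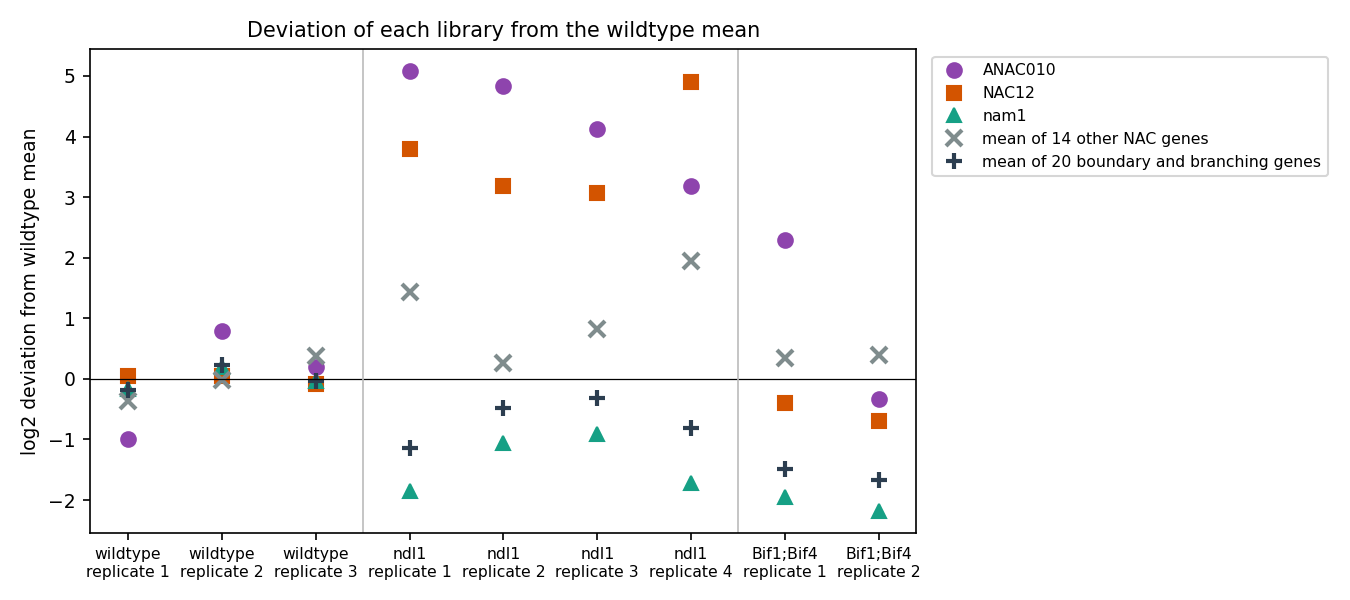
Log2 deviation of each library from the wildtype mean for the 3 genes and for the mean of 14 other NAC genes and of 20 boundary and branching genes. In ndl1 replicate 4 NAC12 lies above ANAC010, while in replicates 1 to 3 ANAC010 lies above NAC12.

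Libraries also differed in tissue markers. The summed level of 10 secondary wall genes was 1573 to 3395 normalized counts in wildtype, 1535 to 4698 in ndl1 and 2092 to 3276 in Bif1;Bif4, and both cesa11 identifiers were at 0 in every library. Within ndl1 the sums were 4393, 1535, 2164 and 4698 in replicates 1 to 4. They rest largely on PAL1, which alone ran from 1016 to 4302 normalized counts in ndl1. The mean log2 deviation of the 5 tested genes from wildtype was 0.55, 0.00, 0.53 and 0.32 in these replicates, another order. Of the 5 tested members, ccr2, a lignin gene, rose by 1.36 ± 0.29 and the list's cad1 fell by 1.09 ± 0.18 (log2, SE, limma, Benjamini-Hochberg adjusted p = 0.0483 and 0.0206). The edgeR adjusted p of ccr2 was 0.0535. In Bif1;Bif4 0 of 5 passed limma, with 3 at an unadjusted p under 0.05 and 0 called by edgeR and DESeq2. Leaf photosynthesis markers summed to 908 to 1033 normalized counts in wildtype, 1012 to 1879 in ndl1 and 1101 to 1286 in Bif1;Bif4, with replicate 4 the highest ndl1 library. The higher ndl1 sums rest on Ppdk1, with means of 60.0 in wildtype, 605 in ndl1 and 337 in Bif1;Bif4. The mean of Pep1 was 507 in wildtype, 366 in ndl1 and 536 in Bif1;Bif4, and that of me3 was 381, 260 and 252. Neither was called in ndl1 (limma, Benjamini-Hochberg adjusted p = 0.0960 and 0.120). Of the 6 tested leaf genes 4 had negative log2 differences in ndl1 and 2 positive ones, with a median of -0.19. A list of MADS box names summed to 28821 to 32055, 24900 to 30717 and 29672 to 30181 normalized counts in the same order of groups. Of its 42 identifiers 3 were at 0 throughout. It also held GRMZM2G034362 and GRMZM2G332687, matched by the name M2 but also named myosin, at means of 3795 and 774 normalized counts. The sums are therefore not of MADS box genes alone. The part of these differences in the levels of the NAC genes was not tested.

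By name, 27 identifiers of the table were NAC genes, and 24 remained beside the 3 members. Of these 24, 13 passed the low-count filter in ndl1, 2 rose, none fell and 11 did not pass. Over all 22416 genes tested 1.94% were called higher and 1.22% lower. The median log2 difference of the 13 was 0.56, against 0.00 for all genes tested, and 12 of 13 were positive. NAC20 (GRMZM2G180328) rose by 3.19 ± 0.64 (SE, limma, Benjamini-Hochberg adjusted p = 0.0375), from 3.89, 1.94 and 2.33 normalized counts in wildtype to 51.3, 11.3, 22.1 and 81.5 in ndl1. It passed the filter through its ndl1 level, as did ANAC010 and NAC12. The second gene named NAC12 (GRMZM2G125777) rose by 0.35 ± 0.07 (SE, limma, Benjamini-Hochberg adjusted p = 0.0374). The level was 2010.5 ± 90.8 normalized counts in wildtype (SD, n = 3) and 2571 ± 143 in ndl1 (SD, n = 4), so the genes that share a name differed widely in the size of their change.

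Summed over the 24 genes, the level was 4286 to 5918 normalized counts in wildtype, 9176, 5866, 6808 and 13432 in ndl1 replicates 1 to 4, and 5167 and 4999 in Bif1;Bif4. Of the ndl1 libraries, replicate 2 lay within the wildtype range and replicate 4 highest.

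The 11 NAC genes that did not pass in ndl1 had log2 differences from -0.22 to 1.88, and the lowest adjusted p among them was 0.125 (limma, Benjamini-Hochberg). The stress-related NAC gene SNAC1, listed as NAC1 (GRMZM2G347043), stood at 851 ± 552 normalized counts against 224 ± 171 in wildtype, with a log2 difference of 1.88 ± 0.71. NAC5 (GRMZM2G162739) stood at 380 ± 223 against 148 ± 20.8. Replicate 4 was the highest ndl1 library for 11 of the 13 tested NAC genes and replicate 2 the lowest for 10. The share of all genes with that order was not computed, so this is not read as a trait of NAC genes. NAC12 shared the high value of replicate 4 and ANAC010 did not. Without ndl1 replicate 2 the count of calls was 5, all higher, namely NAC20, the second NAC12, NAC5 and 2 genes named NAC1. It was 0 without any one of wildtype replicates 1, 2 and 3 or ndl1 replicates 1, 3 and 4.

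In Bif1;Bif4, 12 of the 24 passed the filter and 0 were called by limma, with 0 at an unadjusted p under 0.05 and 0 by edgeR and DESeq2. Over all genes tested 4.28% were called. Their median log2 difference was 0.16, against 0.00 for all genes. Without wildtype replicate 3 the count was 1, the SNAC1 gene (log2 difference 1.61, limma, Benjamini-Hochberg adjusted p = 0.0364). In the direct comparison of ndl1 with Bif1;Bif4, 1 of 14 tested NAC genes beside the members was called by limma, the second NAC12, which was higher in ndl1, where 3.47% of all genes were called and 1.79% were higher in ndl1. This count was 0 without either Bif1;Bif4 library.

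**Figure D3:**
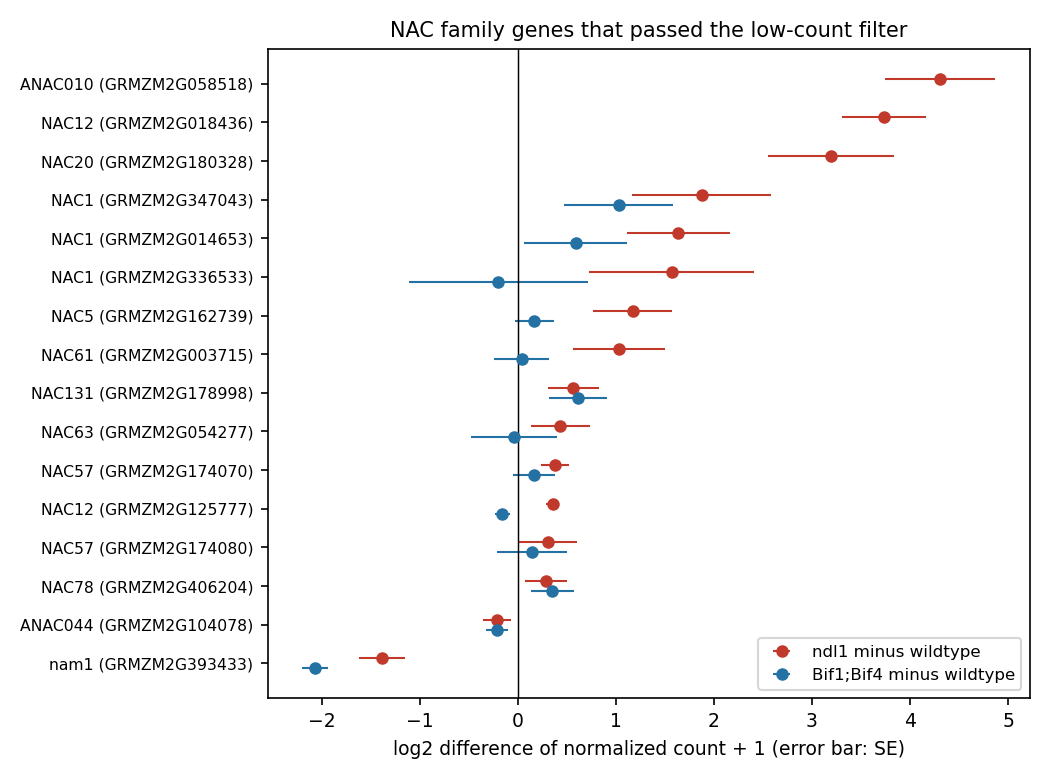
Log2 difference from wildtype, with its SE, of the NAC genes that passed the low-count filter, in ndl1 (red) and Bif1;Bif4 (blue). ANAC010, NAC12 and NAC20 have no blue point because they did not pass the filter in Bif1;Bif4, and nam1 is the lowest in both comparisons, at -1.39 and -2.07.

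A list of 20 further genes of boundaries, branching and meristems gave the setting of nam1. By limma 3 of the 20 fell in ndl1, none rose and 17 did not pass, with a median log2 difference of -0.48. Over all genes 1.22% were called lower and the median was 0.00. They were BA1 (-1.83 ± 0.37), the barren stalk gene needed to start axillary meristems, baf1 (-1.73 ± 0.29) and TD1 (-1.56 ± 0.25), whose receptor kinase restrains meristem growth. The limma Benjamini-Hochberg adjusted p was 0.0396 for BA1, where edgeR gave 0.0563, 0.0211 for baf1 and 0.0190 for TD1. DESeq2 called 5 of the 20 lower in ndl1 and none higher, adding ra1 and ra3 (Benjamini-Hochberg adjusted p = 0.0348 and 0.0391). In Bif1;Bif4 8 of 20 fell by limma and none rose, with a median of -0.52, against 2.05% of all genes called lower and a median of 0.00. DESeq2 called 11 lower and 1 higher, ub2 (0.65, Benjamini-Hochberg adjusted p = 0.0425). These were BA1 (-6.15 ± 0.37), baf1, TD1, the ramosa genes ra1 and ra3, the homeobox gene kn1 (-0.42 ± 0.09), and the liguleless genes lg1 (-1.16 ± 0.24) and lg2 (-1.25 ± 0.19), which act at the boundary of blade and sheath in the leaf. By limma the adjusted p (Benjamini-Hochberg) was 0.0479 for kn1, 0.0470 for lg1 and 0.0219 for lg2, and edgeR called 6 of the 20 lower. Without wildtype replicate 2 none of these 8 calls held (limma adjusted p 0.0517 to 0.155). The 3 calls in ndl1 each ended without wildtype replicate 1 (0.0696 to 0.133), wildtype replicate 2 (0.116 to 0.188) or ndl1 replicate 1 (0.0515 to 0.103). Leaving out Bif1;Bif4 replicate 1 ended the calls of ra1, kn1, lg1, lg2 and TD1, and leaving out replicate 2 also that of ra3. The difference of nam1 in Bif1;Bif4, at -2.07, lay between those of TD1 (-1.40) and baf1 (-4.12). Each mutant was compared with the same wildtype libraries. Log2 differences of the genes that did not pass ran from -2.12 to 0.81 in ndl1 and from -4.60 to 1.05 in Bif1;Bif4. The 0.81 was that of GRMZM2G421491, matched by the name GT1, which the list also holds for GRMZM2G005624 (-0.07 in ndl1).

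In a list of mitochondrial stress genes, 3 of 10 tested members rose in ndl1 by limma (Aox, phb2 and phb3), against 1.94% of all genes called higher. Aox, at a wildtype mean of 1.68 normalized counts, passed the filter through its ndl1 level. It could only be called higher, so its call adds nothing to the count. In Bif1;Bif4 2 of 8 fell (CPN60II and a CPN60I identifier), against 2.05% of all genes called lower. Without wildtype replicate 2 the calls of phb2 and phb3 ended (adjusted p = 0.0739 and 0.112, limma, Benjamini-Hochberg), that of phb3 also without wildtype replicate 1 or 3 or ndl1 replicate 1 (0.0589 to 0.0633). Both CPN60 calls ended without wildtype replicate 2 or either Bif1;Bif4 library (0.113 to 0.232). The mean log2 deviation of this list was 1.29, 1.21, 1.12 and 0.94 in ndl1 replicates 1 to 4, which is the order of the ANAC010 levels. This mean rests largely on Aox, whose log2 difference in ndl1 was 7.96 ± 0.34 (SE, limma). The median log2 difference of the 10 genes was 0.16. The summed level of the list, at 25748, 30176, 27340 and 22793 normalized counts, did not have that order. A relation to ANAC010 was not tested.

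Genes with the most similar profile over the 9 libraries were taken among named genes with a mean of at least 50 normalized counts, by Pearson r of log2 values, as a description that shares the group differences. For ANAC010 the closest of 1815 named genes was Aox (r = 0.940), the alternative oxidase gene. It was followed by AHAS109 (0.912), an acetohydroxyacid synthase gene, gst42 (0.911), TIM (0.910) and gst2 (0.909). Like ANAC010, Aox was higher in Bif1;Bif4 replicate 1 than in replicate 2, with 11.8 and 1.06 normalized counts. These levels are low, and Aox was picked by its r over these same libraries, so the likeness is part of the choice. For NAC12 the closest were nrx1 (0.964), gst2 (0.960), the enolase gene eno1 (0.959), gst42 (0.955) and CslF6-1 (0.947). The level of eno1 was 11166 normalized counts in wildtype, 24271 in ndl1 and 10497 in Bif1;Bif4 (group means).

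For nam1 the closest gene of all 18825 compared was GLK47 (r = 0.988), a gene of the GARP or Golden2-like transcription factor family. Its mean levels were 1245 normalized counts in wildtype, 593 in ndl1 and 455 in Bif1;Bif4. The next named genes were MADS36 (0.976), the ACC oxidase gene acco20 (0.975), whose enzyme makes ethylene, methylase (0.959) and the auxin response factor gene ARF11 (0.946). MADS36 stood at 4101 normalized counts in wildtype, 1318 in ndl1 and 653 in Bif1;Bif4. These genes share with nam1 the order wildtype, ndl1, Bif1;Bif4, and in all, 40 genes had an r above 0.95 with nam1.

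**Figure D4:**
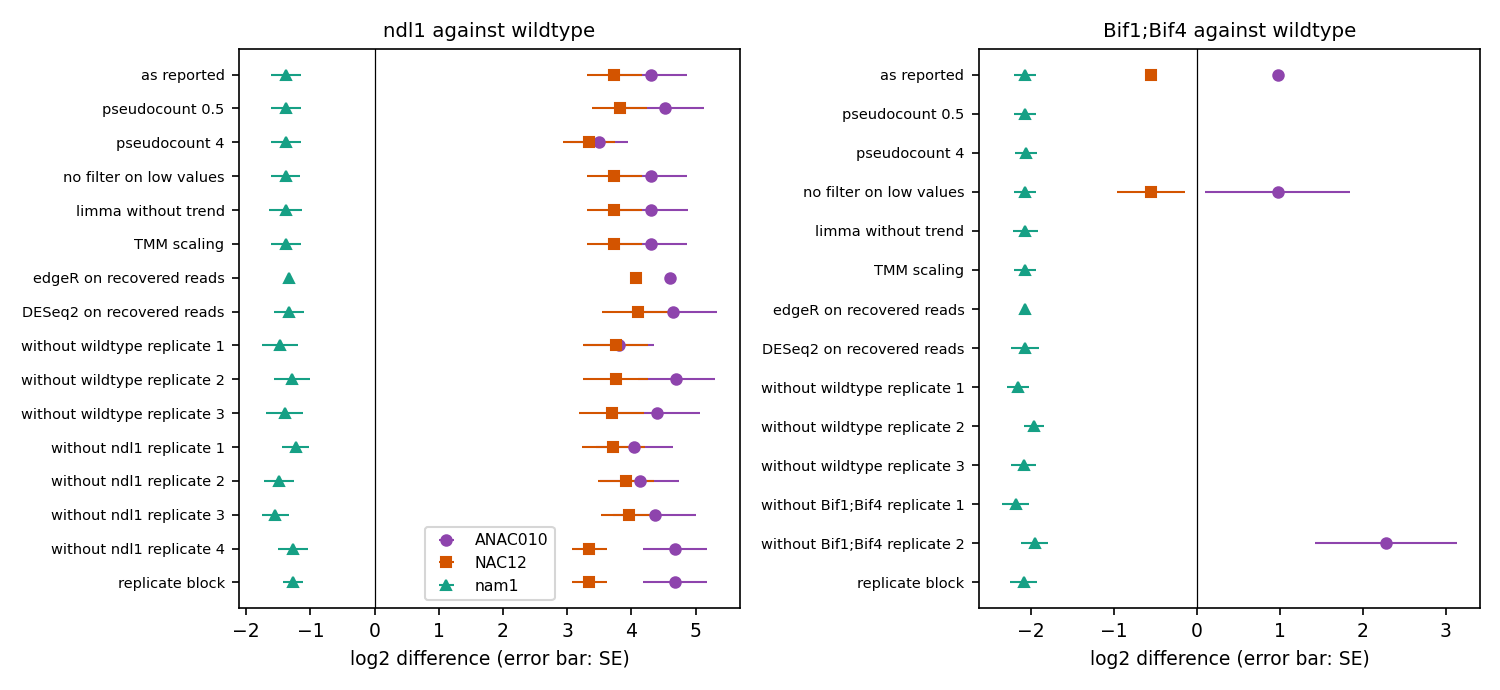
Log2 difference from wildtype of the 3 genes, with its SE where the method gives one, under each processing setting and without each library. ANAC010 and NAC12 stay above 3 in ndl1 and nam1 stays below -1 in both comparisons, while the ANAC010 value in Bif1;Bif4 moves from 0.98 to 2.28 without Bif1;Bif4 replicate 2.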

How the data were processed

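Reads were processed with Trimmomatic, TopHat2 2.1.1, HTSeq and DESeq2, per the submitters' processing notes; no build or strand setting was given in these sources, so reads of overlapping or antisense genes and of near-identical NAC copies are uncertain. The signal values deposited by the authors are named counts in the file headers. They were taken to be reads divided by DESeq2 size factors, an assumption that the headers do not state. Log2 fold changes, p-values and the test-statistic score were also deposited by the authors from DESeq2, per the file headers. Read numbers were recovered from the step size of low values; 100% came out whole to within 0.1 reads, and the recovered reads were the same for wildtype in both tables.

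Each comparison was fitted to log2(normalized count + 1) of its own table by limma-trend (limma 3.58.1, R 4.3.3), after edgeR's filterByExpr at a minimum count of 10, with Benjamini-Hochberg adjustment over all genes and a threshold of 0.05. The added 1 understates changes of low genes. The direct comparison and the printed levels used the 9 libraries scaled together with DESeq2 size factors. On recovered reads, edgeR 4.0.16 called 684, 944 and 769 genes in ndl1, in Bif1;Bif4 and between the mutants, and limma 708, 957 and 806. DESeq2 1.42.0 was also run. The fit was tested on simulated data.

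The members and lists were chosen with earlier results of these data known. NAC genes were taken by RefSeq name (Zm-B73-REFERENCE-NAM-5.0), which 18476 identifiers matched once; 1 identifier named nac4 but also Asn1 was set aside. Named genes were the members, NAC genes that passed, list genes with the lowest adjusted p, and the 5 most similar named genes per member; NAC genes that did not pass were picked after their values were seen. Sequences were not used here.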

Additional observations from a re-analysis of the deposited data

Results flagged for a closer look

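NAC12 (GRMZM2G018436) was picked out because all 4 ndl1 libraries lay above wildtype and both Bif1;Bif4 libraries below it, with log2 differences of 3.73 and -0.55 (-0.546 to 3 digits). Of all genes tested, 9.51% had every ndl1 library above wildtype and 21.2% had both Bif1;Bif4 libraries below it. NAC12 was not among those tested in Bif1;Bif4. The difference between the mutants was not tested, since the ndl1 libraries chose the gene, and the Bif1;Bif4 value rests on 10 reads in all.

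The second NAC12 gene (GRMZM2G125777) was picked out because it was higher in ndl1 than in Bif1;Bif4 by 0.51 (0.505 to 3 digits) on the log2 scale (limma, Benjamini-Hochberg adjusted p = 0.00736). Its levels were 2394, 2745, 2564 and 2581 normalized counts in ndl1 replicates 1 to 4 and 1783 and 1835 in Bif1;Bif4. The adjusted p was 0.0843 without Bif1;Bif4 replicate 1 and 0.0795 without Bif1;Bif4 replicate 2.

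A library stood apart in ndl1 for 2 of the 17 NAC genes checked, by gaps measured on normalized counts and not on log2 values. The rule gives about 1 in 20 by chance only for independent, normally distributed values. Low counts are skewed and the genes share their libraries, so no excess is read from this count. For NAC131 (GRMZM2G178998) replicate 2, at 114 normalized counts, lay below 168, 170 and 173 in replicates 1, 3 and 4, and its gap took 0.918 of the range. For NAC40 (GRMZM5G898290) replicate 4, at 198 normalized counts, lay above 28.9, 1.13 and 6.19 in replicates 1 to 3, and its gap took 0.859 of the range. The wildtype libraries held 0, 2 and 2 reads of NAC40.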

How the results depend on the processing

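The log2 differences of the 3 genes kept their sign under every setting that gave a value. For ANAC010 and NAC12 in Bif1;Bif4 this says little, because the low-count filter removed them under most settings. ANAC010 in ndl1 was 3.50 with a pseudocount of 4, and 3.81 to 4.70 with single libraries left out. For NAC12 against Bif1;Bif4 a pseudocount of 4 gave 3.72. Leaving out single libraries gave -2.18 to -1.95 for nam1 in Bif1;Bif4, and 2.02 to 4.64 for ANAC010 between the mutants. ANAC010 in Bif1;Bif4 could be fitted once in this way, at 2.28, without Bif1;Bif4 replicate 2. It passed the filter there through the 20 reads of Bif1;Bif4 replicate 1. Without that replicate it was filtered out, and replicate 2 itself deviated from the wildtype mean by -0.33 (log2). A stable sign is therefore not read for this value. All-gene counts with single libraries left out were 111 to 1467 in ndl1, 1 to 1299 in Bif1;Bif4 and 152 to 897 between the mutants. DESeq2 called 2210, 2105 and 1628, and limma without trend 256 in Bif1;Bif4; the cause was not tested. Counts of other NAC genes in ndl1 were 1 with a pseudocount of 4, 0 without trend, 4 with DESeq2 and 0 to 5 with single libraries left out, and 0 to 1 in each of the other comparisons. The labels number replicates alike, but same-numbered libraries of wildtype and ndl1 had deviations correlated at -0.089, 0.194 and -0.021, so the numbers were not taken as pairs. With the replicate block the all-gene counts were 413, 585 and 336 and the counts of other NAC genes 0, 1 (NAC1, GRMZM2G347043) and 0. Against wildtype the block kept shared replicate numbers only. It thus also left out ndl1 replicate 4 in ndl1 and wildtype replicate 3 in Bif1;Bif4, and the effects of block and lost library cannot be told apart. The NAC1 difference was 1.61 with the block and also without wildtype replicate 3 alone. Calls of the other named genes ended in 83 values and held in 91 with single libraries left out, 12 and 17 without trend, 11 and 18 with the block, and 6 and 23 with edgeR, and 0 reversed. Read numbers of 1 to 20 limit ANAC010 and NAC12 outside ndl1.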

Other observations

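Genes next to the members, by their order in the RefSeq assembly, were examined as a set fixed by position, the nearest 2 matched genes on either side of each. In ndl1 0 of 12 such neighbours were called by limma, with 2 at an unadjusted p under 0.05 and 0 by edgeR or DESeq2, against 3.16% of all genes called. They included the auxin response factor gene ARF12 beside ANAC010 (log2 difference 0.15 ± 0.16, SE) and lbl1 beside nam1 (-0.11 ± 0.11), a gene of the small RNA pathway that patterns leaf surfaces. In Bif1;Bif4 2 of 12 fell, against 2.05% of all genes called lower. They were GRMZM2G069018 beside ANAC010 (-0.68 ± 0.12, SE, limma, Benjamini-Hochberg adjusted p = 0.0322) and GRMZM2G060856 near nam1 (-0.37 ± 0.07, adjusted p = 0.0434).

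Other stress-related families were counted by name, with calls by limma. The shares of all genes called were 1.94% higher and 1.22% lower in ndl1, and 2.23% higher and 2.05% lower in Bif1;Bif4. In ndl1 1 of 15 tested WRKY genes, 2 of 25 EREB genes and 1 of 7 heat shock factor genes rose and none fell, while edgeR and DESeq2 called 2 and 3 EREB genes lower. There 4 of 23 glutathione transferase genes and 3 of 24 genes of the oxygen and abiotic stress list rose. Of the 4, gst2, at a wildtype mean of 3.04 normalized counts, passed the filter through its ndl1 level and could only be called higher. In Bif1;Bif4 0 of 13 WRKY genes passed limma (2 at an unadjusted p under 0.05, 0 by edgeR and DESeq2), 3 of 23 EREB genes rose and 2 fell, and 1 of 7 heat shock factor genes rose. There 1 of 20 glutathione transferase genes rose, and 7 of 24 genes of the oxygen and abiotic stress list rose and 1 fell. The MADS box list, its myosin-named entries included, had 4 of 25 members lower in ndl1 and none higher by limma, where DESeq2 called 3 higher. In Bif1;Bif4 6 of 28 were lower and 2 higher by limma. Of 6 tested leaf photosynthesis genes 1 rose in ndl1 and 1 in Bif1;Bif4, in both cases Ppdk1, which the oxygen and abiotic stress list also holds.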
